A study of Homo sapiens with 2 samples.

Results

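The mRNAs described here encode the nuclear pore complex and the soluble receptors that carry cargo through it. They were taken by gene symbol from the table of RNA recovered with CNBP: symbols that begin with NUP, KPNA, KPNB, IPO, XPO or TNPO and a number, together with TPR, POM121, NDC1, RANBP2, RANGAP1, RCC1 and CSE1L. This gave 48 of 10836 rows, of which 24 were pore components, 22 were transport receptors and 2 were regulators of the GTPase Ran. CNBP carries CCHC zinc fingers with which it contacts RNA and single-stranded DNA. RNA that came down with a CNBP antibody (CNBP RIP) from HCT116, a line of human colon carcinoma cells, was set against RNA of the same kind of cells before precipitation (input). All cells were crosslinked with ultraviolet light, homogenized and sonicated, and the labels name no other treatment. Each group was 1 library, so the differences below have no replicate check, neither an error nor a test is given, and no control antibody library was used here. Levels are FPKM as deposited (build hg19), which scale the fragments of a gene by transcript length and library size, at a read depth that is unknown.

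The nuclear pore complex is a large ring-shaped channel in the nuclear envelope. An outer ring and an inner ring form its scaffold, membrane nucleoporins anchor it, and nucleoporins rich in phenylalanine-glycine (FG) repeats fill the channel. Filaments extend from its cytoplasmic side and a basket from its nuclear side. Receptors of the importin beta family bind cargo and FG repeats, and the nucleotide state of Ran tells them on which side to let go. Importin alpha proteins are adaptors that link a classical nuclear localization signal to importin beta. The gradient of Ran is kept by RCC1, which loads GTP on Ran in the nucleus, and by RANGAP1, which triggers GTP hydrolysis in the cytoplasm.

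Most of these mRNAs had a higher FPKM in the RIP than in the input. The 48 genes had a median of 6.72 FPKM in the RIP (range 0.670 to 64.2) and of 1.85 FPKM in the input (range 0.403 to 84.2), and none was listed at 0 in either. The log2 ratio, log2(RIP FPKM + 1) - log2(input FPKM + 1), had a median of 1.36 over them and of 0.28 over all rows of the table, and 40 of the 48 were above 0. The addition of 1 understates the ratio of mRNAs with low FPKM. At a log2 ratio of 2 or more (4-fold), the size that the study used for CNBP-enriched genes, 9 of 48 were higher in the RIP (18.8%), where 12.5% of all rows were. At least 4-fold lower was 1 of 48 (2.08%), against 13.5% of all rows. With 0.58 (about 1.5-fold) as the line, 38 were higher (79.2%) and 7 lower (14.6%), where 42.6% of all rows were higher and 34.7% lower. The plot of FPKM by gene shows this as filled points to the right of open points in all but 8 lines.

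**Figure D1:**
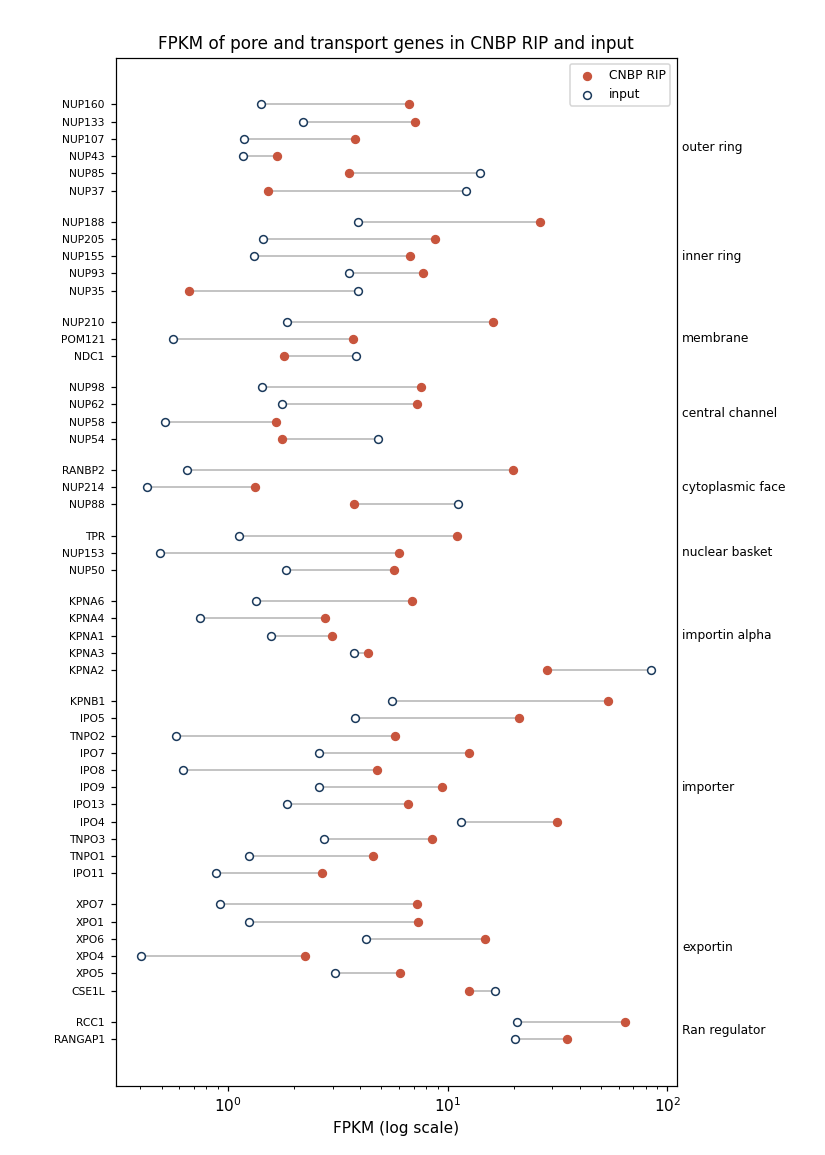
FPKM of each of the 48 genes in the CNBP RIP (filled) and in the input (open) on a log axis, 1 library each, grouped by role, so that a line joins the values of 1 gene. The RIP value lies to the right of the input value for 40 genes and to the left for 8, which are NUP85, NUP37, NUP35, NDC1, NUP54, NUP88, KPNA2 and CSE1L.

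The table itself was limited to rows that reached 0.5 FPKM in either library. Of the 48 genes, 45 reached 0.5 in both, and NUP153, NUP214 and XPO4 did so in the RIP alone, so that this limit fixed their ratio above 0. Of all rows, 2392 reached it in the RIP alone and 1338 in the input alone. NUP210L, NUP62CL, KPNA5 and KPNA7, 4 further genes of these families, had no row in the table used here. As a check of the cell line, 5 of 8 markers of colon epithelium had a row, with EPCAM at 21.2 FPKM in the RIP and 109 FPKM in the input, KRT8 at 160.0 FPKM in the RIP and 433 FPKM in the input, and KRT18 at 199 FPKM in the RIP and 564 FPKM in the input. CDX2 had 2.62 FPKM in the RIP and 4.68 FPKM in the input, and CDH1 had 3.88 FPKM in the RIP and 0.415 FPKM in the input, whereas VIL1, CDX1 and LGR5 had none. Of 4 markers of fibroblasts and blood, only COL1A1 had a row (4.92 FPKM in the RIP and 0.199 FPKM in the input).

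RANBP2, the giant nucleoporin of the cytoplasmic filaments, which also acts as a SUMO ligase, had the highest ratio of the 48 genes. RANBP2 (ENSG00000153201.15_1, chromosome 2, 109335937 to 109402267) reached 19.9 FPKM in the RIP and 0.654 FPKM in the input. Its log2 ratio was 3.66, at percentile 98.4 of all rows. Near-identical RGPD genes arose from RANBP2 and can share its reads, and 5 of them were in the table, with 0.981 to 1.59 FPKM in the RIP and 0.00346 to 0.0887 FPKM in the input. The other genes of the cytoplasmic face were spread widely. NUP214, an FG nucleoporin that binds exportins, had 1.33 FPKM in the RIP and 0.432 FPKM in the input (log2 ratio 0.70). Its partner NUP88 had 3.75 FPKM in the RIP and 11.1 FPKM in the input (-1.35).

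All 3 nuclear basket mRNAs were higher in the RIP by at least 1.5-fold. TPR, the coiled-coil protein that forms the basket, had 10.98 FPKM in the RIP and 1.12 FPKM in the input, a log2 ratio of 2.50. NUP153, the FG nucleoporin at the base of the basket, had 5.997 FPKM in the RIP and 0.490 FPKM in the input, a log2 ratio of 2.23. NUP50, which helps importin alpha to release cargo, had 5.73 FPKM in the RIP and 1.84 FPKM in the input, a log2 ratio of 1.24. The basket had the highest median of the 6 parts of the pore (2.23), though with only 3 genes. That median is the value of NUP153, for which a ratio above 0 was fixed by the limit of the table.

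The inner ring, which links the membrane to the channel, held 4 genes higher in the RIP and 1 lower. NUP188 had 26.5 FPKM in the RIP, the highest level of any pore mRNA there, and 3.91 FPKM in the input (log2 ratio 2.48). Its paralog NUP205 had 8.79 FPKM in the RIP and 1.45 FPKM in the input, and at a log2 ratio of 1.997 it lay just short of the 4-fold line. NUP155 was at 1.74 and NUP93, which holds the inner ring together, at 0.93. NUP35, the small dimeric nucleoporin of the ring, had 0.670 FPKM in the RIP and 3.92 FPKM in the input (-1.56), and its RIP level was the lowest of the 48 genes.

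The outer ring is built from the Y complex, whose subunits assemble into 1 unit, and its mRNAs lay on both sides. NUP160 (1.67), NUP133 (1.35) and NUP107 (1.13) had higher levels in the RIP, with 3.78 to 7.13 FPKM there and 1.18 to 2.19 FPKM in the input. NUP43, a beta-propeller subunit, had 1.67 FPKM in the RIP and 1.17 FPKM in the input (0.30). NUP85 had 3.57 FPKM in the RIP and 14.1 FPKM in the input (-1.72). NUP37 (ENSG00000075188.8_2, chromosome 12, 102466881 to 102513902), another beta-propeller subunit, had 1.53 FPKM in the RIP and 12.1 FPKM in the input. Its log2 ratio of -2.37, or 5.18-fold lower on the FPKM plus 1 scale, was the lowest of the 48 genes, and it was the only one at least 4-fold lower.

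Membrane and channel nucleoporins were likewise split. NUP210, the large transmembrane glycoprotein of the pore (ENSG00000132182.11_1, chromosome 3, 13357735 to 13461809), reached 16.2 FPKM in the RIP and 1.87 FPKM in the input, a log2 ratio of 2.58. POM121, which anchors the pore, had 3.73 FPKM in the RIP and 0.565 FPKM in the input (1.60). It has a near-identical copy, POM121C, at 3.46 FPKM in the RIP and 0.847 FPKM in the input, so the reads of either are uncertain. NDC1, the third membrane nucleoporin, had 1.81 FPKM in the RIP and 3.85 FPKM in the input (-0.79). In the channel, NUP98 (1.82) and NUP62 (1.58) had 7.61 and 7.25 FPKM in the RIP, beside 1.43 and 1.76 FPKM in the input. NUP62 forms a trimer with NUP58 and NUP54 that lines the channel. NUP58 was at 0.81, whereas NUP54 had 1.76 FPKM in the RIP and 4.83 FPKM in the input (-1.08). Thus the 3 mRNAs of the trimer covered log2 ratios from -1.08 to 1.58.

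**Figure D2:**
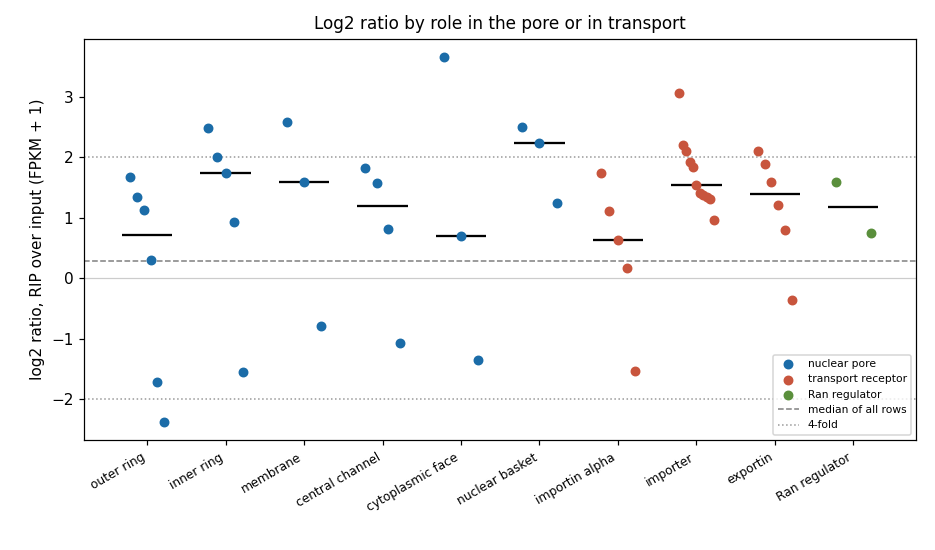
Log2 ratio of RIP over input, from FPKM plus 1, for each gene by its role, with a bar at the median of the role, a dashed line at the median of all rows (0.28) and dotted lines at 4-fold. Every role of the pore but the nuclear basket has a gene below 0, while all 11 importer genes lie above the dashed line.

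Among the transport receptors, the importers formed the most even group. All 11 were higher in the RIP by at least 1.5-fold, with log2 ratios from 0.96 to 3.06 and a median of 1.54. KPNB1, which encodes importin beta 1, the main import receptor (ENSG00000108424.9_2, chromosome 17, 45726842 to 45762871), reached 53.7 FPKM in the RIP and 5.57 FPKM in the input. Its log2 ratio of 3.06 lay at percentile 96.3 of all rows and was the second highest of the 48 genes. IPO5, an importer of ribosomal proteins, had 21.1 FPKM in the RIP and 3.80 FPKM in the input (2.20). TNPO2, a transportin, had 5.75 FPKM in the RIP and 0.5803 FPKM in the input (2.10), whereas its close paralog TNPO1, which imports proteins with a PY signal, had 4.56 FPKM in the RIP and 1.25 FPKM in the input (1.30). IPO4 was abundant in both libraries, with 31.5 FPKM in the RIP and 11.5 FPKM in the input (1.38). IPO7 (1.91), IPO8 (1.83), IPO9 (1.54), IPO13 (1.41) and TNPO3, the importer of SR splicing factors (1.34), lay between, and IPO11 was lowest.

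Of the 6 exportins, 5 were higher in the RIP by at least 1.5-fold. XPO7 had 7.25 FPKM in the RIP and 0.920 FPKM in the input (2.10). XPO1, also called CRM1, the receptor for leucine-rich export signals, had 7.32 FPKM in the RIP and 1.25 FPKM in the input (1.89). XPO6, the exporter of actin with profilin, had 14.8 FPKM in the RIP and 4.25 FPKM in the input (1.59), and XPO4 followed at 1.21. For XPO4 a ratio above 0 was fixed by the limit of the table. XPO5, which exports pre-miRNAs, had 6.06 FPKM in the RIP and 3.08 FPKM in the input (0.79). CSE1L, which returns importin alpha to the cytoplasm, had 12.5 FPKM in the RIP and 16.4 FPKM in the input, a log2 ratio of -0.37 that was 0.54 when the libraries were rescaled to the mean of their sums.

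The importin alpha genes had a lower median log2 ratio than the importers, though KPNA6 and KPNA4 lay within the range of the importers. KPNA2 (ENSG00000182481.8_2, chromosome 17, 66031635 to 66042958) was the most abundant of the 48 mRNAs in the input, with 28.3 FPKM in the RIP and 84.2 FPKM in the input. Its log2 ratio of -1.54, or 2.90-fold lower, stood beside 3.06 for KPNB1, the receptor that KPNA2 binds in the import complex. After the median of rows with a like input level was subtracted, KPNA2 was at 1.58. The other importin alpha genes were less abundant and not lower. KPNA6 had 6.87 FPKM in the RIP and 1.35 FPKM in the input (1.74). KPNA4 was at 1.11 and KPNA1 at 0.62. KPNA3, with 4.34 FPKM in the RIP and 3.76 FPKM in the input, was at 0.17, below the median of all rows. The median of the 5 was 0.62.

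RCC1 and RANGAP1 had nearly the same level in the input and differed in the RIP. RCC1 had 64.2 FPKM in the RIP, the highest of the 48 genes there, and 20.7 FPKM in the input (1.59). RANGAP1, which is anchored at the pore through RANBP2, had 34.8 FPKM in the RIP and 20.3 FPKM in the input (0.75).

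Pore and receptor mRNAs were then compared. The log2 ratio had a median of 1.30 over the 24 pore genes and of 1.39 over the 22 receptor genes, a difference of -0.10. The ranges overlapped almost fully, from -2.37 to 3.66 in the pore and from -1.54 to 3.06 in the receptors. At least 4-fold higher were 5 pore genes (20.8%) and 4 receptor genes (18.2%), where 12.5% of all rows were. The lower part of the distribution was less alike. The lower quartile was 0.02 in the pore and 1.00 in the receptors, beside -1.05 over all rows. At least 1.5-fold lower were 6 pore genes (25%) and 1 receptor gene (4.55%), both below the 34.7% of all rows. Without the importin alpha genes the median of the receptors was 1.54 (n = 17). The median levels were 5.87 FPKM in the RIP and 1.61 FPKM in the input for the pore, and 7.06 FPKM in the RIP and 2.23 FPKM in the input for the receptors. Across genes, which are not independent replicates, Spearman's rho between RIP and input FPKM was -0.08 over the 24 pore genes and 0.77 over the 22 receptor genes, beside 0.39 over all rows.

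The pore mRNAs that were lower in the RIP were those most abundant in the input. NUP85, NUP37, NUP88, NUP54 and NUP35 held the 5 highest input levels of the 24, and NDC1 followed in place 7 after NUP188. These 6 genes had 3.85 to 14.1 FPKM in the input, whereas the 18 others had 0.432 to 3.91 FPKM. In the RIP the 6 had 0.670 to 3.75 FPKM and the 18 had 1.33 to 26.5 FPKM. The input level is part of the ratio, so the relation is a description. After the median of rows with a like input level was subtracted, NUP37 was at -1.06, NUP85 at -0.40 and NUP88 at -0.53, and KPNA2 (1.58), CSE1L (0.95), NUP43 (-0.23), NUP214 (-0.12) and NUP58 (-0.011) had the sign opposite to that of the plain ratio.

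Large nucleoporins stood higher than small ones. The number in a nucleoporin's name gives the approximate mass of the protein in kDa, and 20 of the pore genes carry one. All 9 with a number of 100 or more were above 0, with log2 ratios from 0.70 (NUP214) to 2.58 (NUP210) and a median of 1.74. For NUP153 and NUP214 a ratio above 0 was fixed by the limit of the table, and the lowest of the 7 others was NUP107 (1.13). The 11 with a smaller number ran from -2.37 (NUP37) to 1.82 (NUP98) with a median of 0.30, and 5 of them were below 0. NUP98 counts among the smaller ones by name, though its main transcript encodes a larger precursor that is cut into NUP98 and NUP96. Spearman's rho between the number and the log2 ratio was 0.71 over the 20 genes, with the number against the RIP level at 0.58 and against the input level at -0.37. The split by number was made after the values were seen.

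**Figure D3:**
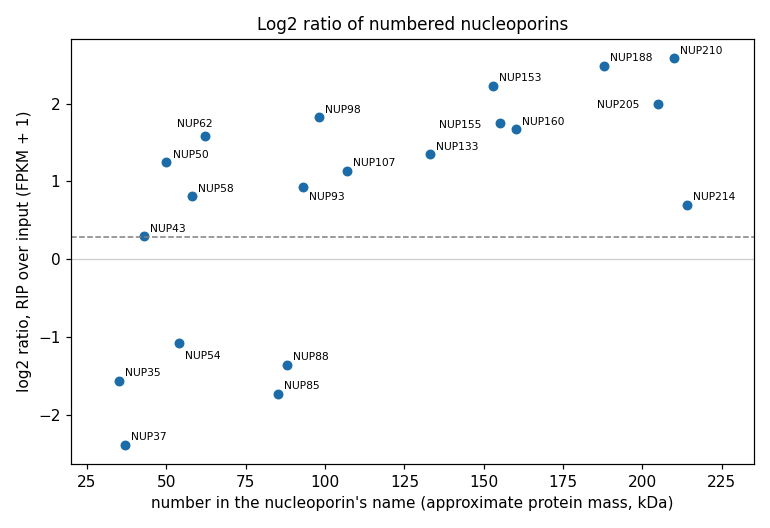
Log2 ratio of RIP over input, from FPKM plus 1, against the number in the name of 20 nucleoporins, with a grey line at 0 and a dashed line at the median of all rows (0.28). The 9 genes with numbers of 100 or more all lie above the dashed line, while those with smaller numbers lie between -2.37 and 1.82.

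Over the whole table, size was described by the span of the locus, which is another measure than protein mass. The ratio was higher for larger loci, with a rho of 0.37 between the log2 ratio and the span over all rows. Over the 48 genes this rho was 0.20. With all rows split by span into 10 groups, the median ratio was 0.99 in the group with the longest loci and -1.12 in that with the shortest. The 48 genes had a median span of 65187 bases, against 29750 bases for all rows. When the median of rows of like span was subtracted, the 48 genes had a median of 0.73, and 4 of the 48 were higher and 3 lower by at least 4-fold, where 9.76% of all rows so corrected were higher and 12.7% lower. RANBP2 (3.00) and KPNB1 (2.70) remained at least 4-fold higher under this correction, and NUP37 was at -2.82. The sign differed from that of the plain ratio for KPNA3 (-0.74), NUP214 (-0.36), KPNA1 (-0.29), NUP93 (-0.13) and IPO11 (-0.031). Corrected likewise for an exonic length recovered from the decimals of the FPKM, the median of 44 genes was 0.64, with 0.45 for the pore and 0.96 for the receptors. Between the plain ratio and this length rho was 0.37 over all rows where it was recovered and 0.42 over the 44 genes. The part of transcript length in these ratios was not tested.

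CNBP is known to prefer G-rich RNA with a GGAG core, so the transcript starts were searched for it. The windows were the 50 bases after each annotated start in the RefSeq promoter table (GRCh38.p14), of which 44 of the 48 genes had at least 1. Of their 58 windows, 21 held GGAG on the transcript strand (36.2%) and 18 on the other strand (31.0%), whereas 36.6% and 29.6% of all 35116 windows did. The 19 genes with a match had a median log2 ratio of 1.38 and the 25 without had 1.35. In the pore 26.7% of 30 windows held it, and in the receptors 41.7% of 24 windows. On the other strand the shares were 26.7% and 37.5%. Pore genes with a match had a median log2 ratio of 1.13 and those without had 1.46, beside 1.39 and 1.34 in the receptors. The matches of NUP210 and IPO7, which were among the 3 genes with the highest ratio of those that had one, follow, each as 30 bases, 5′ to 3′ on the transcript strand, with GGAG in capitals, to let the contexts be compared.
NUP210 (chromosome 3, minus strand, bases 16 to 45 from the start): gcgcgcgcgggcgGGAGcGGAGggcaacgg
IPO7 (chromosome 11, plus strand, bases 11 to 40 from the start): cggttgccgctgcGGAGcgcggcgggtcca
NUP210 carried GGAG in tandem in a GC-rich run, and IPO7 carried it once in its window. A match is a run of letters near a start, and the FPKM per gene used here do not show where on a transcript CNBP was bound. The study called peaks of the RIP against the input and reported GGAG in most peak sequences. Those peaks were not used here.

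Genes of the same pathway outside the 48 had lower median ratios. Their loci were also shorter, with a median span of 28387 bases over the 4 lists, against 65187 bases for the 48 genes. Their median input level was also higher, at 7.06 FPKM against 1.85 FPKM for the 48 genes. The parts of span and input level in this contrast were not tested. The 8 further pore components with a row had a median of -0.86, of which 2 were higher in the RIP and 3 lower by at least 4-fold. Of all rows, 12.5% were higher and 13.5% lower by that size. AHCTF1, the large subunit that seeds pores on chromatin, had 12.97 FPKM in the RIP and 0.545 FPKM in the input (3.18), and GLE1, an activator of the helicase that remodels exported mRNA, had 17.8 FPKM in the RIP and 2.16 FPKM in the input (2.57). SEC13, a small beta-propeller shared by the outer ring and the COPII coat, had 4.55 FPKM in the RIP and 38.0 FPKM in the input (-2.81), and AAAS, or aladin, had 2.24 FPKM in the RIP and 14.4 FPKM in the input (-2.25). NUPL2, an FG nucleoporin of the cytoplasmic face, was listed at 0 in the RIP and at 3.74 FPKM in the input. The limit of the table fixed the ratio of NUPL2 below 0, and it is among the 3 counted as at least 4-fold lower. With SEC13, AHCTF1 and SEH1L (-0.32), the mRNAs of the outer ring ran from -2.81 to 3.18.

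The 6 further receptors and adaptors had a median of 0.24. XPOT, the exportin of tRNA, had 7.28 FPKM in the RIP and 1.35 FPKM in the input (1.82), close to the other exportins. RANBP6, an importin paralog, had 0.954 FPKM in the RIP, with 0 listed for the input, so that the limit of the table fixed its ratio above 0. SNUPN, the snRNP import adaptor, was at -0.99, and HIKESHI, an import carrier of heat shock proteins, had 0.787 FPKM in the RIP and 15.7 FPKM in the input (-3.22).

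All 5 genes described of the Ran cycle list were lower in the RIP by at least 1.5-fold, among them 2 by at least 4-fold, with a median of -1.76. Of all rows, 34.7% were at least 1.5-fold lower and 13.5% at least 4-fold lower. The median span of these 5 loci was 11420 bases. Their median input level was 41.8 FPKM, against 1.95 FPKM over all rows. The parts of span and input level in these ratios were not tested. No value with input level corrected is given for the 5. KPNA2, at 84.2 FPKM in the input, went from -1.54 to 1.58 under that correction. RAN itself had 30.2 FPKM in the RIP and 88.3 FPKM in the input (-1.52). RANBP1, which helps RANGAP1 to act on Ran, had 11.7 FPKM in the RIP and 41.8 FPKM in the input (-1.76). NUTF2, the small carrier that returns Ran to the nucleus, had 1.02 FPKM in the RIP and 51.4 FPKM in the input (-4.70). RANGRF, a small Ran-binding factor, had 0.126 FPKM in the RIP and 32.3 FPKM in the input (-4.89). For RANGRF a ratio below 0 was fixed by the limit of the table, and it is counted in the 5 and in the 2. RANBP3, a cofactor of XPO1, was at -0.76. Thus by the plain ratio RCC1 and RANGAP1 were higher in the RIP, while RAN and its small binding partners were lower.

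The mRNA export list had a median of -0.75 over 20 genes, of which 4 were higher and 11 lower by at least 1.5-fold. Of all rows, 42.6% were higher and 34.7% lower by that size. MCM3AP, the large scaffold of the TREX-2 complex, had 19.0 FPKM in the RIP and 1.34 FPKM in the input (3.10), while ENY2, a small subunit of the same complex, had 0.258 FPKM in the RIP and 20.6 FPKM in the input (-4.10). ZC3H11A, a TREX-associated zinc finger protein, was at 2.72. THOC7, a small subunit of the THO complex, had 0.932 FPKM in the RIP and 44.9 FPKM in the input (-4.57).

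**Figure D4:**
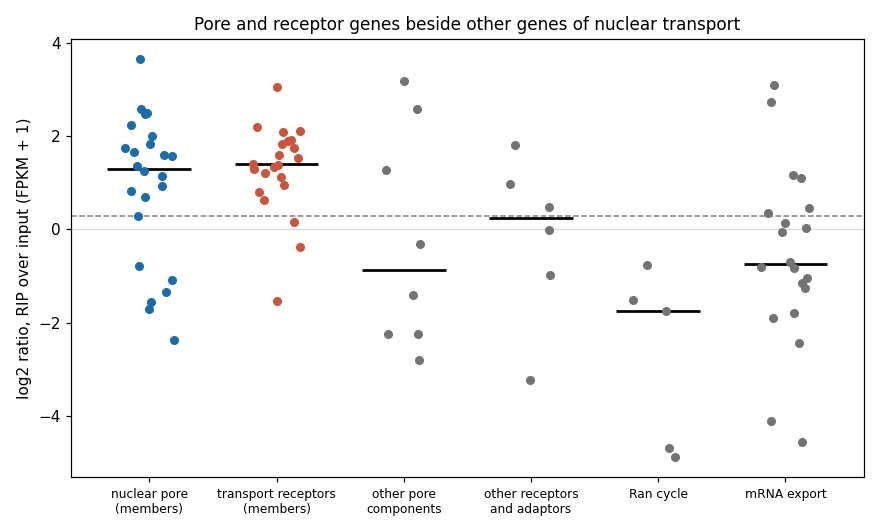
Log2 ratio of RIP over input, from FPKM plus 1, of the 24 pore and 22 receptor genes beside 4 lists of other nuclear transport genes, with a bar at each median, a grey line at 0 and a dashed line at the median of all rows (0.28). The bars of the pore (1.30) and the receptors (1.39) lie above the dashed line, and those of the other pore components (-0.86), the Ran cycle (-1.76) and mRNA export (-0.75) lie below 0.

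Overlap with neighbouring loci touched 7 of the 48 genes. NUP98, NUP62, NUP88, NUP43 and XPO5 overlapped rows on the opposite strand, IPO11 overlapped KIF2A on the same strand, and NUP188 overlapped rows on both. The library kit keeps the strand, but whether counting used it is not given in the study's methods or labels. KIF2A had 2.78 FPKM in the RIP and 0.939 FPKM in the input, and IPO11 had 2.67 FPKM in the RIP and 0.888 FPKM in the input. RP11-101E3.5, on the same strand as NUP188, had 4.45 FPKM in the RIP and 0.0976 FPKM in the input (log2 ratio 2.31). The limit of the table fixed that ratio above 0. Whether these rows share reads was not tested.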

How the data were processed

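Per the labels, RNA was extracted after proteinase digestion and a strand-specific kit was used for the libraries. The authors deposited FPKM per gene for protein-coding genes (hg19). Tools listed by the submitters' processing notes are HISAT2, StringTie, cutadapt and FastQC, without versions or roles. FPKM divides by transcript length and is not scaled to a common sum: it summed to 109684 in the RIP and 214387 in the input. No counting interval is given because depth is unknown.

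The log2 ratio followed the study's formula, with a pseudocount of 1. Members, roles and the 4 lists of other genes were chosen with earlier results of these data known. All members were described, and of each other list the 2 highest and 2 lowest ratios, or every gene for the Ran cycle, with NUPL2 and SEH1L added after their values were seen. Some items of the lists and 1 sequence are not reported here. With 1 library per group nothing was tested, and counts use rules of size.

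Corrections for span, input level or exonic length subtracted the median log2 ratio of rows in the same of 20 bins. Exonic length was the smallest whole number up to 25000 that, times the FPKM of both libraries, gave at most 6 decimals. It was kept above 200 and where all other solutions were its multiples (80.4% of rows), and may be a fraction of the real one. Of 1000 simulated lengths 97.8% were recovered, of which 83.8% were exact. The span correction was tested on simulated data. Other alternatives were pseudocounts of 0.1, 0.5 and 5, filters on FPKM, rescaling, centring and smaller gene sets. Python 3.11.15, pandas 2.3.3 and scipy 1.17.1 were used.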

Additional observations from a re-analysis of the deposited data

How the results depend on the processing

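No paired analysis was possible because each group held 1 library. The read depth is unknown, so what depth limits cannot be stated. With no replicates, a median was called moved when it shifted by at least 0.58, and a count when it differed by more than 1.5 times. The median of the 48 genes stayed above the median of all rows under every alternative run (0.64 to 1.47 on the log2 scale), and the pore median stayed below the receptor median (-0.51 to -0.04). The correction by protein length was not run, and the one by exonic length was chosen after seeing the data; the causes of the shifts below were not tested.

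At a pseudocount of 5 the medians were 0.76 for all 48 genes, 0.65 for the pore and 0.80 for the receptors. Rescaled to the mean of the sums they were 2.15, 2.05 and 2.23, and with the 20 most abundant genes of either library left out of the sums 2.06, 1.96 and 2.13, while the median of all rows moved to 0.85 and 0.78. With span corrected they were 0.73 for all and 0.77 for the receptors, and with exonic length corrected 0.64 for all and 0.45 for the pore.

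The share of all rows past the same line under the same alternative stands in parentheses. At least 4-fold higher in the RIP were 19 genes at a pseudocount of 0.1 (27.9%), 14 at 0.5 (17.6%), 2 at 5 (3.09%), 5 of the 36 that reached 1 FPKM in both libraries (10.6%), 26 rescaled to the mean of the sums (22.6%), 26 with the 20 most abundant left out (21.2%), 5 after centring on the median row (9.1%), 4 with span corrected (9.76%) and 4 of 44 with exonic length corrected (7.6%). At least 4-fold lower were 2 at a pseudocount of 0.1 (22.7%), 0 at 5 (6.66%), 0 under the first rescaling (8.18%) and 0 under the other (8.68%), 2 after centring (16.1%), 3 with span (12.7%), 0 with input level (4.2%) and 2 with exonic length corrected (11.5%). At least 1.5-fold higher were 25 with span (35%) and 23 with exonic length corrected (34.1%). At least 1.5-fold lower were 4 after rescaling to the mean of the sums (24.5%) and 3 with input level corrected (30%).

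The sign turned for KPNA3 (-0.74), NUP214 (-0.36), KPNA1 (-0.29), NUP93 (-0.13) and IPO11 (-0.031) with span corrected. It turned for KPNA2 (1.58), CSE1L (0.95), NUP43 (-0.23), NUP214 (-0.12) and NUP58 (-0.011) with input level corrected. With exonic length corrected it turned for NUP214 (-0.19), NUP93 (-0.24), XPO5 (-0.32), TNPO1 (-0.091), KPNA4 (-0.0015) and KPNA1 (-0.49). It also turned for CSE1L under the rescalings (0.54, and 0.43 with the 20 most abundant left out) and for KPNA3 after centring (-0.12).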
